A study of Homo sapiens with 12 samples.

Results

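The genes described here code for subunits of the ATP-dependent chromatin remodelling complexes, with a few relatives. They were taken by symbol: every symbol that starts with SMARC, ARID, INO80 or CHD followed by a digit, together with PBRM1, DPF1, DPF2, DPF3, ACTL6A, BCL7A, BCL7B, BCL7C, SS18, HELLS, ATRX, RUVBL1 and RUVBL2. This rule found 57 of the 22784 symbols, of which 51 are protein-coding genes and 6 are pseudogenes or noncoding transcripts. RNA-seq was performed in SK-UT-1, an established human uterine leiomyosarcoma (uLMS) cell line, kept for 48 h in DMSO vehicle, in 5 µM JQ1 or in 5 µM I-BET 762. Both compounds are BET inhibitors (BETis), which keep bromodomains from binding acetylated histones, JQ1 being a thienotriazolodiazepine and I-BET 762 a triazolobenzodiazepine. The labels name 12 libraries, and values were used for 10 of them: DMSO 13, 14 and 15, JQ1 17, 18, 19 and 20, and I-BET 762 21, 22 and 23. DMSO 16 and I-BET 762 24 were not analysed here, and the methods of the study say only that outlier samples were left out. All libraries come from a single line, and since no label says that they are separate cultures, p-values measure only the spread between these libraries, which may be technical.

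Chromatin remodellers use ATP to slide, eject or exchange nucleosomes. The mammalian SWI/SNF complexes are built around SMARCA4 or SMARCA2. The form called BAF carries ARID1A or ARID1B, and the form called PBAF carries ARID2 and PBRM1. ISWI complexes space nucleosomes with SMARCA5 or SMARCA1, the CHD proteins join chromodomains to the same kind of motor, CHD3, CHD4 and CHD5 are the motors of the NuRD deacetylase complex, and the INO80 complex slides nucleosomes with the help of RUVBL1 and RUVBL2. SWI/SNF genes are tumour suppressors in many cancers, and ATRX is often lost in leiomyosarcoma. The rule also takes ARID3, ARID4 and ARID5 genes, which code for DNA-binding proteins with the same ARID domain but are not subunits of these complexes.

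Promoter sequences are shown for 5 members, namely 3 of the genes with the largest falls (CHD3, INO80D and SMARCAL1) and, of the genes that rose over 1.5-fold, those with the highest counts (CHD1 and PBRM1). Each run holds the 250 bases before the RefSeq start on GRCh38.p14, written 5′ to 3′ on the strand of the gene, at chr17:7888539-7888788 for CHD3 (plus strand), chr2:206086175-206086424 for INO80D (minus), chr2:216412234-216412483 for SMARCAL1 (plus), chr5:98929008-98929257 for CHD1 (minus) and chr3:52685914-52686163 for PBRM1 (minus). Capitals mark matches on either strand to 6 motifs: CACGTG, known as the E-box, TATAAA, the TATA box, CCAAT, the CCAAT box, GGGCGG, the GC box, GGAAGT, an ETS core, and TGACGTCA, the cAMP response element.
CHD3: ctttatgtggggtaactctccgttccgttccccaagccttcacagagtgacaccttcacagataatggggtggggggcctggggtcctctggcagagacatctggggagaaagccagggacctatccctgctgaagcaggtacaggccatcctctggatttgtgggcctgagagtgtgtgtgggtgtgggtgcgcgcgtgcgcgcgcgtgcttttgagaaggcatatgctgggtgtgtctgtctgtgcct
INO80D: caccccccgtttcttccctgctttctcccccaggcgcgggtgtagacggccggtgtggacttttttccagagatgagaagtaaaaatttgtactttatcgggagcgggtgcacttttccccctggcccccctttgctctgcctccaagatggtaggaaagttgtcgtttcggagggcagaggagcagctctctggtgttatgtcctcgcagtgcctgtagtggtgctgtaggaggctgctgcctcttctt
SMARCAL1: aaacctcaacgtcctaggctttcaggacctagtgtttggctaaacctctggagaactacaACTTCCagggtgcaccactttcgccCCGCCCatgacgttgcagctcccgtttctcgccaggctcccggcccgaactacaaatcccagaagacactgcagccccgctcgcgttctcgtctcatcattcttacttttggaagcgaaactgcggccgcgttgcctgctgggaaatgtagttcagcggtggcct
CHD1: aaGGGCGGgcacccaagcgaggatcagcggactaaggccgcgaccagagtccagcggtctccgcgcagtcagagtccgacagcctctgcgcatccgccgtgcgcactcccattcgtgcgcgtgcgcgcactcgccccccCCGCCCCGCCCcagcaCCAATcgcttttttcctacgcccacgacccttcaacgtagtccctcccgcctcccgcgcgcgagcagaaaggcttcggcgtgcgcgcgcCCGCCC
PBRM1: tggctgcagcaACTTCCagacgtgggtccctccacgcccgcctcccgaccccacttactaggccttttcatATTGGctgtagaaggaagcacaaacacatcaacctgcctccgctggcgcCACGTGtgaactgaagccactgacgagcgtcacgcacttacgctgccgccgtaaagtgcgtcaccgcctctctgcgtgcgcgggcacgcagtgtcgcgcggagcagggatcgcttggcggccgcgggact
The CHD3 and INO80D windows held none of the 6 motifs. SMARCAL1 had 1 GC box and 1 ETS core, CHD1 had 4 GC boxes, a pair of which share a base, and 1 CCAAT box, and PBRM1 had 1 E-box, 1 CCAAT box and 1 ETS core. GC content was 58.8% for CHD3, 56% for INO80D, 56.4% for SMARCAL1, 70.8% for CHD1 and 63.6% for PBRM1. RefSeq promoter entries were matched for 42 of the 57 members. Each of these gave 1 window, from the entry nearest its Gencode start, while the comparison set holds every entry. The sets are therefore unlike, and nothing particular to the members is read from the shares that follow. A GC box was present in 28 of the 42, against 42.6% of all 35116 windows of the same length. For the CCAAT box the counts were 13 of 42 against 32%, for the ETS core 8 of 42 against 19.5%, for the E-box 3 of 42 against 6.35%, for the TATA box 1 of 42 against 10.7%, and for the cAMP response element 0 of 42 against 1.65%. Median GC content was 67.6% over the members and 58% over all windows. A match is a description of letters in the window, and binding was not measured.

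Values are normalized counts, the unit that remains when the deposited log2 scale is undone. Reads on genes ranged from 35564586 to 39658989 per library, and a gene with 0 reads could still have up to 3, or 2.73 to 3.30 normalized counts, by counting error alone. A gene was tested when it reached 10 normalized counts in at least 3 libraries, which 14839 symbols and 53 members did. SMARCB1, SMARCA5-AS1, SMARCE1P2 and SMARCE1P3 did not. Differences are log2 fold changes of (normalized count + 1) from limma, and a gene is said to rise or fall where its adjusted p-value was under 0.05. A change is called where it was also over 1.5-fold. Because whole cultures were lysed, a smaller share of cells with a transcript and less of it per cell cannot be told apart. Of the smooth muscle markers, 7 of 9 reached 100 normalized counts in a library, while MYOCD and ACTG2 had at most 3 reads in every library. MYH11 and, on the immune list, CD3E were also chosen as markers but had no values, so neither could be read. Summed over a library, the smooth muscle markers came to 20502 to 21137 (DMSO), 10662 to 11270 (JQ1) and 11822 to 12374 (I-BET 762), and 5 epithelial markers to 1212 to 1271, 511 to 602 and 497 to 544. Mesenchymal markers, mostly VIM, came to 127991 to 137113, 159802 to 172080 and 136815 to 140326. Within the lists members differed: COL1A2 went from 16734 to 20623 with DMSO to 9325 to 12582 and 12482 to 13828, while VIM was higher in every treated library than in any DMSO library, and SMTN, at 2132 to 2573, was at 2343 to 2885 and 2568 to 2740, against the lower smooth muscle sum. These lists moved with treatment, and their part in the results below was not tested. Immune and endothelial markers were at or near 0, with sums of at most 3.04 and 7.40.

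With JQ1, 46 of the 53 tested members passed the test, 19 higher and 27 lower, and 23 were called. The background is high in these cells, since 71.7% of all tested genes passed the test (36% higher and 35.6% lower) and 36.1% were called. By direction, 6 members were called higher, where 13.3% of all genes were, and 17 lower, where 22.8% of all genes were. These counts are 11.3% and 32.1% of the tested members. The median log2 fold change was -0.17 over the members and 0.01 over all tested genes. JQ1 and DMSO values did not overlap for 43 of the 53 members, 18 higher and 25 lower, and for 68.4% of all genes (34.1% and 34.3%). With I-BET 762, 36 members passed the test, 16 higher and 20 lower, where 61.1% of all genes did (29.9% higher and 31.3% lower). Of these, 6 were called higher and 10 lower, 30.2% of the tested members, beside a background of 26.9% (8.96% higher and 17.9% lower). The median was -0.09 over the members and -0.00 over all genes, and I-BET 762 and DMSO values did not overlap for 44 members, 20 higher and 24 lower, beside 71% of all genes (34.8% and 36.2%). The shares of tested members past the test and called were 86.8% and 43.4% with JQ1 and 67.9% and 30.2% with I-BET 762. No test set these shares against the background, and no background share was computed for genes with similar counts. Nothing particular to the members is therefore read from any of them, including the JQ1 shares past the test and without overlap. The comparisons share their DMSO libraries, so their counts are not independent. Of the members past the test, 13 with JQ1 and 4 with I-BET 762 did not pass it under at least 1 alternative setting or with a library left out, all but SMARCE1P1 and ARID3C with changes under 1.5-fold. In turn, 4 and 9 other members passed it under an alternative.

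**Figure D1:**
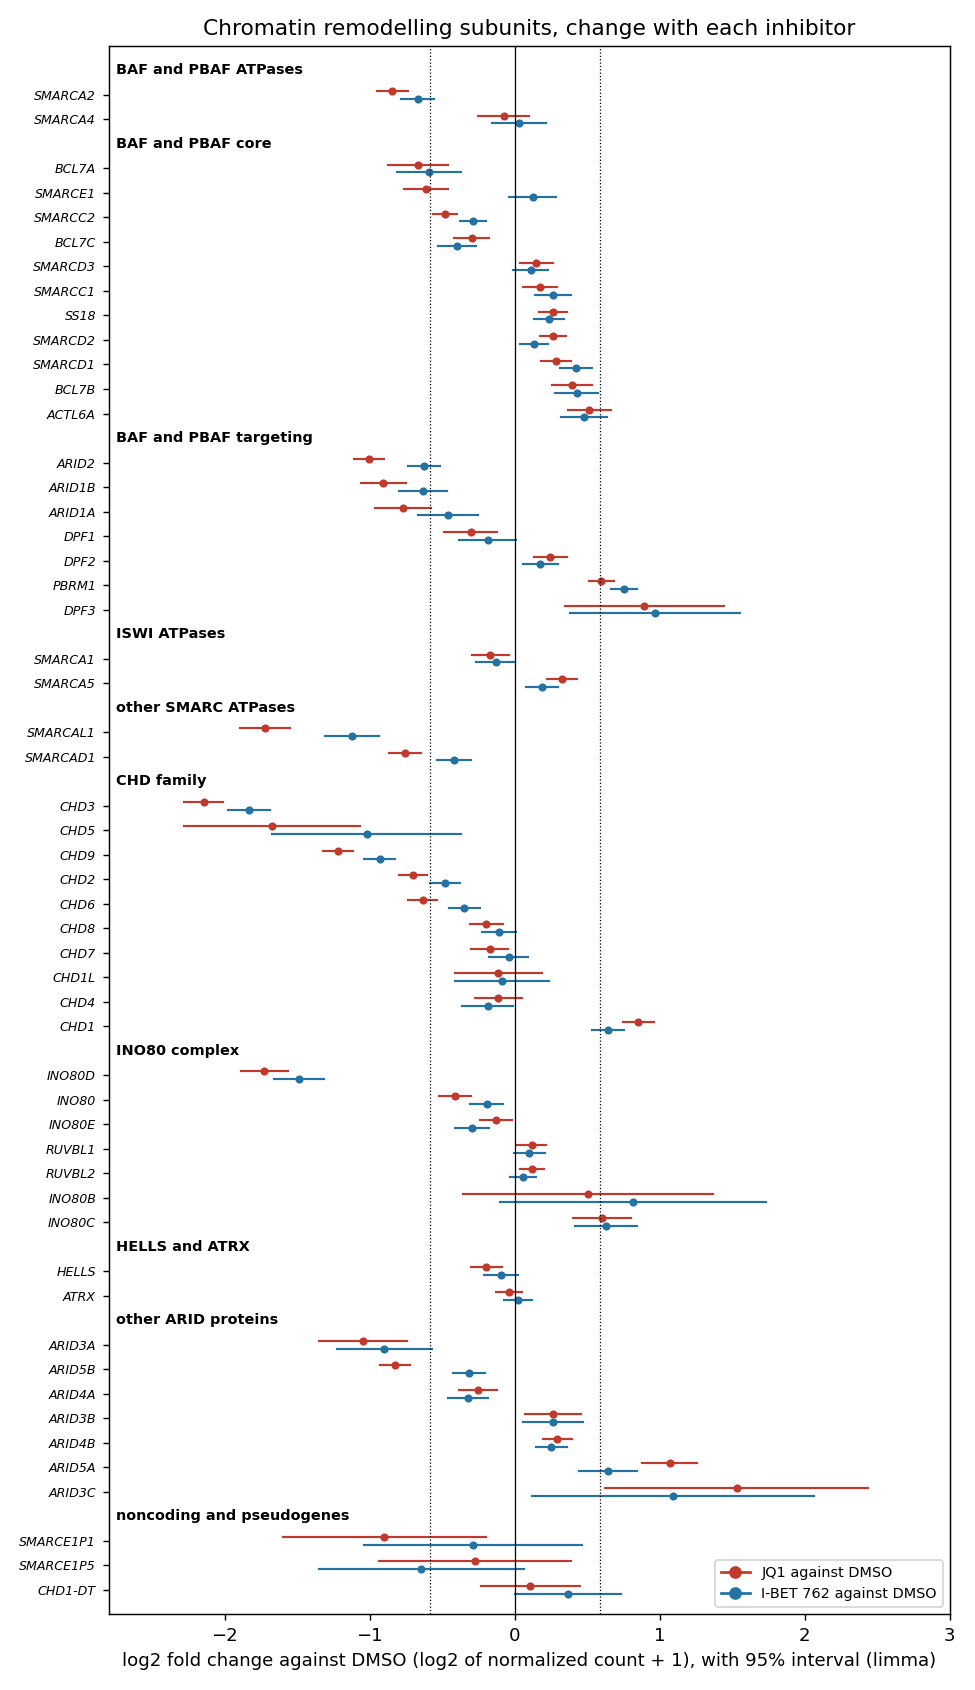
Log2 fold change against DMSO (x axis, log2 of normalized count + 1) for the 53 tested members, grouped by role, with JQ1 in red and I-BET 762 in blue. Points are limma estimates, bars their 95% intervals, and dotted lines mark 1.5-fold. CHD3 lies farthest to the left, at -2.15 and -1.83, and wide bars belong to genes with few reads such as ARID3C and INO80B.

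The catalytic subunits of SWI/SNF moved apart. SMARCA2, which codes for the ATPase BRM (chromosome 9, 1980290 to 2193624, hg38), stood at 2813, 2987 and 2977 normalized counts with DMSO, at 1642, 1569, 1590 and 1724 with JQ1, and at 1816, 1811 and 1896 with I-BET 762. All treated libraries were below all DMSO libraries, and the 2 treated groups did not overlap either. SMARCA2 fell 1.79-fold with JQ1 (log2 -0.84 ± 0.05, SE, limma adjusted p = 4.4e-10) and 1.59-fold with I-BET 762 (-0.67 ± 0.05, adjusted p = 3.5e-08). SMARCA4, which codes for the alternative ATPase BRG1, was 5761, 5051 and 5279 with DMSO, 5289, 4131, 5619 and 5409 with JQ1, and 5408, 5491 and 5509 with I-BET 762. These groups overlapped, and JQ1 18 was the lowest library. The SMARCA4 difference was -0.08 with JQ1 (95% interval -0.25 to 0.10) and 0.03 with I-BET 762 (-0.16 to 0.22), and neither passed the test, although the JQ1 value did at equal totals (-0.26). The ratio of SMARCA4 to SMARCA2 within a library, which does not depend on the scaling of the libraries, had a geometric mean of 1.83 with DMSO (1.69 to 2.05), 3.11 with JQ1 (2.63 to 3.53) and 2.97 with I-BET 762 (2.91 to 3.03).

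Among the core subunits of the SWI/SNF complexes, counted here with SS18, which PBAF lacks, 11 of 12 were tested, and the scaffold pair SMARCC1 and SMARCC2 moved in opposite directions. SMARCC2 was 7304, 7208 and 7257 with DMSO, 5202, 5203, 5094 and 5290 with JQ1, and 5981, 5962 and 5900 with I-BET 762. The groups were narrow and separate, with differences of -0.48 ± 0.04 and -0.29 ± 0.04. SMARCC1 was 12219, 12207 and 12528 with DMSO, 12755, 14682, 13332 and 14986 with JQ1, and 14721, 15024 and 14567 with I-BET 762. It rose by 0.18 ± 0.05 with JQ1 and 0.26 ± 0.06 with I-BET 762. The JQ1 value turned to -0.01 when libraries were scaled to equal totals, and was 0.11 at equal upper quartiles. It did not pass the test under either scaling. The ratio of SMARCC1 to SMARCC2 went from 1.70 with DMSO (1.67 to 1.73) to 2.68 with JQ1 (2.45 to 2.83) and 2.48 with I-BET 762 (2.46 to 2.52).

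The BCL7 proteins, small subunits that attach to the ATPase, also diverged. BCL7A counts were 874, 865 and 794 with DMSO, 603, 442, 496 and 599 with JQ1, and 535, 592 and 555 with I-BET 762. BCL7A fell in both treated groups, by 0.67 ± 0.10 with JQ1 and by 0.59 ± 0.10 with I-BET 762, values close to the 1.5-fold line. The call was lost without JQ1 18 (-0.58), and for I-BET 762 without DMSO 13, DMSO 14, I-BET 762 21 or I-BET 762 23 (-0.56 to -0.58). BCL7B rose by 0.39 ± 0.07 and 0.43 ± 0.07, from 1121 to 1304 counts with DMSO to 1534 to 1755 with JQ1 and 1600 to 1707 with I-BET 762. BCL7C fell by 0.30 ± 0.06 and 0.40 ± 0.06. The ratio of BCL7A to BCL7B accordingly went from 0.685 (0.664 to 0.709) to 0.328 (0.265 to 0.393) with JQ1 and 0.338 (0.314 to 0.370) with I-BET 762.

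SMARCE1, which codes for the HMG-box subunit BAF57 (chromosome 17, 40624962 to 40648654), was the core subunit in which the compounds differed most. Its counts were 1191, 1017 and 1128 with DMSO, 726, 768, 753 and 665 with JQ1, and 1145, 1198 and 1291 with I-BET 762. The JQ1 libraries lay below all others, while the I-BET 762 and DMSO libraries overlapped. SMARCE1 fell 1.53-fold with JQ1 (-0.61 ± 0.07, limma adjusted p = 1.2e-06), and the difference with I-BET 762 was 0.12 (95% interval -0.04 to 0.29, adjusted p = 0.17). The call with JQ1 was lost without DMSO 13 (-0.56) or JQ1 20 (-0.57), with the adjusted p-value still under 0.05. In the Gencode V44 annotation 18.9% of its exon bases overlap another gene on the same strand, so part of its reads could have been counted elsewhere or dropped.

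The other core subunits rose by less than 1.5-fold. ACTL6A, an actin-related subunit, was 4230, 4733 and 4704 with DMSO, 6111, 7591, 6286 and 6134 with JQ1, and 6517, 6523 and 6000 with I-BET 762. It rose by 0.52 ± 0.07 with JQ1 and by 0.48 ± 0.08 with I-BET 762, with JQ1 18 above the other JQ1 libraries. SMARCD1, SMARCD2 and SS18 rose by 0.29, 0.26 and 0.26 with JQ1 and by 0.42, 0.13 and 0.24 with I-BET 762. At equal totals the JQ1 values were 0.10, 0.078 and 0.077 and did not pass the test, nor did SMARCD2 with I-BET 762 (0.038), which also lost it without DMSO 15 or I-BET 762 21. SMARCD3 rose by 0.15 with JQ1, a value that became -0.04 under equal totals and lost the test without DMSO 15, and its 0.11 with I-BET 762 did not pass the test. In all, 7 core subunits rose and 4 fell with JQ1, beside 36% and 35.6% of all genes, and 6 rose and 3 fell with I-BET 762, beside 29.9% and 31.3%. At equal totals SMARCC1, SMARCD1, SMARCD2, SMARCD3 and SS18 were no longer among the rises with JQ1, nor SMARCD2 with I-BET 762.

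SMARCB1, the core subunit lost in rhabdoid tumours, had no measured level. It was listed at 1 read in JQ1 17, 2 in I-BET 762 21 and 1 in I-BET 762 23, and at 0 in the other 7 libraries, none above what a count of 0 allows. The gene lies on chromosome 22 at 23786931 to 23838009 (hg38, plus strand). Its exons were cut into 216 stretches of 75 bases, and 100% of them had an exact copy on an alternate contig of hg38. Of 11 neighbours within 200 kb, the 4 with all stretches copied (DDTL, GSTT2B, SLC2A11 and CHCHD10) had at most 53 reads in any library. Among the 4 with none copied, ZNF70 had 674 to 957 reads and GUSBP11 412 to 634, while VPREB3 and DRICH1 had at most 17 and 5. CABIN1, with 5.56% of stretches copied, had 3840 to 5078. Which contigs the aligner index held, and how reads with several matches were counted, is not given in the sources used here. Whether the copied sequence took the reads of SMARCB1 was not tested, and no level or change is read from its values.

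**Figure D2:**
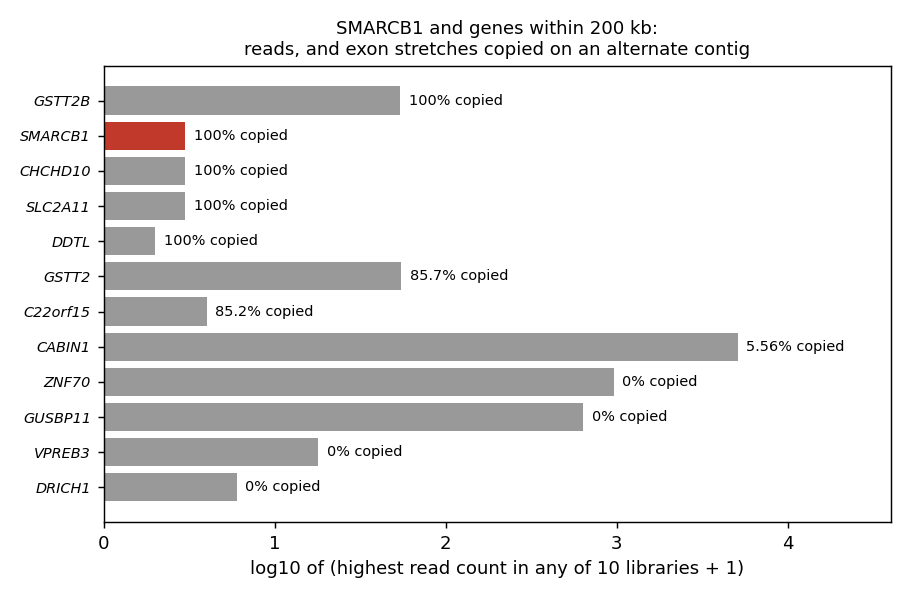
Highest read count in any of the 10 libraries (x axis, log10 of reads + 1) for SMARCB1, in red, and 11 genes within 200 kb, with the share of exon stretches of 75 bases copied on an alternate contig written beside each bar. SMARCB1 and the fully copied neighbours end at or below 53 reads, while CABIN1 and ZNF70, with 5.56% and 0% copied, reach 5078 and 957.

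Of the 7 subunits that set the form of the complex, 3 rose and 4 fell with JQ1 and 3 rose and 3 fell with I-BET 762, where 71.7% and 61.1% of all genes passed the test. The ARID subunits fell and PBRM1 rose. ARID2, which defines PBAF, was 4441, 4347 and 4319 with DMSO, 2134, 2250, 2268 and 2071 with JQ1, and 2858, 2720 and 2917 with I-BET 762. The 3 groups were separate, and ARID2 fell 2-fold with JQ1 (log2 interval -1.11 to -0.90, limma adjusted p = 3.5e-11) and 1.54-fold with I-BET 762 (-0.63 ± 0.05, adjusted p = 4.5e-08). ARID1B, the alternative BAF subunit, was 4822, 3828 and 4147 with DMSO, 2260, 2069, 2397 and 2348 with JQ1, and 2686, 2627 and 2911 with I-BET 762. It fell by 0.91 ± 0.07 and by 0.63 ± 0.08, and the I-BET 762 call was lost without DMSO 13 (-0.54). ARID1A, the BAF subunit most often mutated in cancer, was 2111, 1688 and 1869 with DMSO, 1110, 916, 1250 and 1161 with JQ1, and 1320, 1361 and 1422 with I-BET 762. Its fall of 0.77 ± 0.09 with JQ1 was called, and its fall of 0.46 ± 0.10 with I-BET 762 was under 1.5-fold.

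PBRM1, the polybromo subunit of PBAF with its array of bromodomains, went the other way. It was 7924, 8029 and 8134 with DMSO, 12104, 12310, 11934 and 12206 with JQ1, and 13172, 13681 and 13730 with I-BET 762. PBRM1 rose 1.51-fold with JQ1 (0.60 ± 0.04, limma adjusted p = 1.9e-09) and 1.68-fold with I-BET 762 (0.75 ± 0.04, adjusted p = 7.6e-10). The JQ1 value lay at the edge of the fold threshold, and its call was lost under equal totals (0.41) and equal upper quartiles (0.53). Thus ARID2 and PBRM1, both PBAF subunits, differed in direction in every treated library. The DPF genes code for PHD-finger subunits of BAF. DPF3 was scarce, at 18.4, 12 and 23.7 with DMSO, 27.5, 31.6, 32 and 43.6 with JQ1, and 35.4, 29.1 and 41.3 with I-BET 762, and rose by 0.89 ± 0.26 (adjusted p = 0.0057) and 0.97 ± 0.28 (adjusted p = 0.0066). DPF2, at 700 counts per kb of transcript with DMSO against 140 for DPF1 and 1.58 for DPF3, rose by 0.25 and 0.18. At equal totals these were 0.060 and 0.079 and did not pass the test, and with I-BET 762 the test was also lost without I-BET 762 21. DPF1 fell by 0.30 with JQ1, and its -0.19 with I-BET 762 did not pass the test, although it did at equal totals (-0.28).

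**Figure D3:**
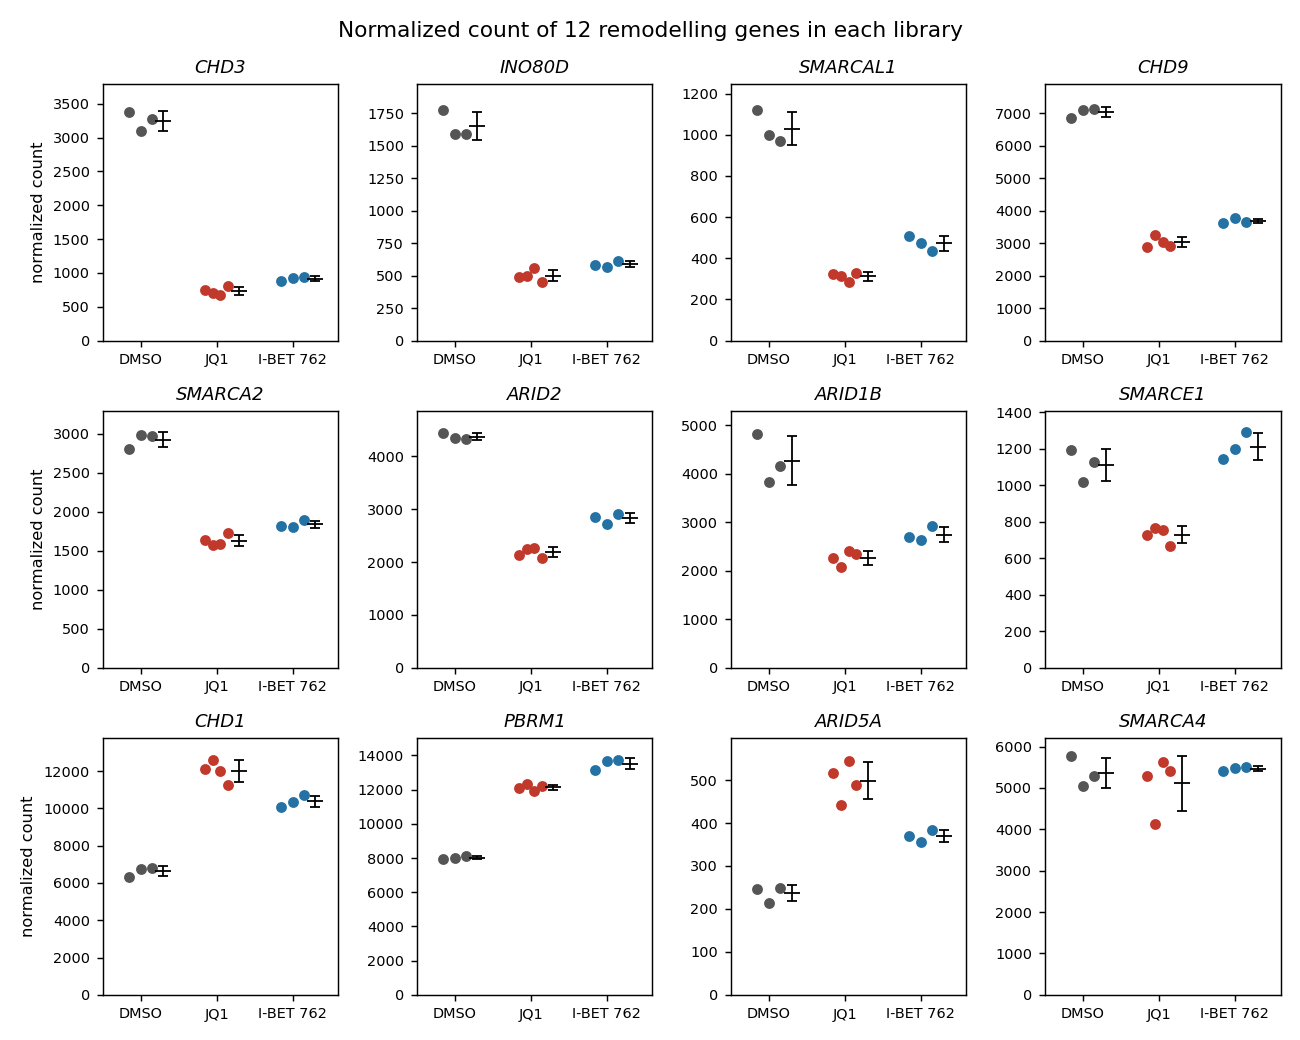
Normalized counts (y axis, from 0) in each library for 12 members, with DMSO in grey, JQ1 in red and I-BET 762 in blue. Each point is a library, and the bar to its right gives the group mean ± SD (3, 4 and 3 libraries). The groups are separate for CHD3, INO80D, SMARCAL1 and CHD9, and overlap for SMARCA4.

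The ISWI motors changed little. SMARCA5 (SNF2H) was 10316, 11378 and 11254 with DMSO, 13731, 14584, 13529 and 13316 with JQ1, and 12258, 12629 and 12686 with I-BET 762, and rose by 0.33 ± 0.05 and 0.19 ± 0.05. SMARCA1 (SNF2L) fell by 0.17 ± 0.06 with JQ1, with overlapping groups of 8310 to 9273 counts with DMSO and 7347 to 8817 with JQ1, and its -0.13 with I-BET 762 did not pass the test. The JQ1 test was lost without DMSO 14, DMSO 15 or JQ1 20, and under moderation without a trend. The I-BET 762 value passed at equal totals (-0.23), at equal upper quartiles (-0.17) and with only those groups in the model. It also passed without DMSO 13 (-0.18) or JQ1 18. Their ratio, SMARCA5 to SMARCA1, was 1.23 (1.23 to 1.24) with DMSO, 1.74 (1.65 to 1.81) with JQ1 and 1.54 (at most 1.60) with I-BET 762.

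Both remaining motors of the SMARC group fell, SMARCAL1 by the most. SMARCAL1, an annealing helicase that acts at stalled replication forks, is on chromosome 2 at 216412383 to 216483053 (hg38, plus strand). It was 1122, 1000 and 968 with DMSO, 322, 312, 283 and 330 with JQ1, and 507, 475 and 436 with I-BET 762. The 3 groups were separate, and the fall was 3.30-fold with JQ1 (-1.72 ± 0.08, limma adjusted p = 3.1e-11) and 2.18-fold with I-BET 762 (-1.12 ± 0.09, adjusted p = 2.4e-08). SMARCAD1, a remodeller of newly replicated chromatin, was 4513, 4785 and 4666 with DMSO, 2645, 3028, 2728 and 2644 with JQ1, and 3537, 3468 and 3436 with I-BET 762. It fell by 0.75 ± 0.05 with JQ1, which was called, and by 0.42 ± 0.06 with I-BET 762, which was not.

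In the CHD family 5 of the 10 genes were called lower and 1 higher with JQ1, and 3 lower and 1 higher with I-BET 762. Over all genes 22.8% were called lower and 13.3% higher with JQ1, and 17.9% and 8.96% with I-BET 762. CHD3, a motor of NuRD, had the largest fall of all members that were tested. It lies on chromosome 17 at 7884796 to 7912760 (hg38, plus strand), and the window printed above ends at the start of its canonical transcript. CHD3 counts were 3386, 3092 and 3277 with DMSO, 753, 703, 679 and 805 with JQ1, and 876, 919 and 943 with I-BET 762. The treated values were far below DMSO and did not overlap with each other, a fall of 4.43-fold with JQ1 (-2.15 ± 0.06, limma adjusted p = 1.8e-13) and 3.56-fold with I-BET 762 (-1.83 ± 0.07, adjusted p = 8.0e-12).

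Of the alternative NuRD motors, CHD5 fell as CHD3 did and CHD4 did not pass the test. CHD4 was 830, 840 and 803 with DMSO, 838, 657, 786 and 781 with JQ1, and 747, 743 and 685 with I-BET 762. Its differences of -0.11 (95% interval -0.28 to 0.05) and -0.19 (-0.36 to -0.01) did not pass the test (adjusted p = 0.20 and 0.061). Both passed it at equal totals (-0.30 and -0.28), and the I-BET 762 value also at equal upper quartiles, with only those groups in the model, and without JQ1 18. The CHD4 level is uncertain, because 46.9% of its exon bases overlap another annotated gene on the same strand. The ratio of CHD4 to CHD3 was 0.254 with DMSO (0.245 to 0.272), 1.04 with JQ1 (0.935 to 1.16) and 0.794 with I-BET 762 (0.727 to 0.853), the widest shift of the 18 pairs. CHD5, a form known from neurons, was low, at 84.3, 78.6 and 89.2 with DMSO, 35.2, 14.1, 21 and 40.6 with JQ1, and 39.4, 35.1 and 49.2 with I-BET 762. CHD5 fell in both groups, by 1.67 ± 0.29 (adjusted p = 7.2e-05) and by 1.02 ± 0.31 (adjusted p = 0.0089).

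CHD1 and CHD2, close relatives that bind active genes, also moved in opposite directions. CHD1 was 6329, 6765 and 6822 with DMSO, 12119, 12614, 12028 and 11238 with JQ1, and 10096, 10328 and 10707 with I-BET 762. It rose 1.81-fold with JQ1 (0.85 ± 0.05, limma adjusted p = 2.8e-10) and 1.56-fold with I-BET 762 (0.64 ± 0.05, adjusted p = 3.9e-08). The I-BET 762 call was lost under equal totals (0.55), with the adjusted p-value still under 0.05. CHD2 was 9845, 9222 and 9507 with DMSO, 5692, 5810, 5709 and 6175 with JQ1, and 6724, 6722 and 6993 with I-BET 762, and fell by 0.70 ± 0.05 and by 0.48 ± 0.05, the latter under 1.5-fold. Per kb of transcript, CHD2 was above CHD1 with DMSO, at 1019 and 815 counts, and below it with JQ1 (625 and 1473) and I-BET 762 (729 and 1274). The ratio of CHD1 to CHD2 was 0.697 (0.643 to 0.734) with DMSO, 2.05 (1.82 to 2.17) with JQ1 and 1.52 (at most 1.54) with I-BET 762. CHD1-DT, a transcript that diverges from the CHD1 promoter, was at 58.2 to 67.8 counts with DMSO, 56.6 to 76.0 with JQ1 and 74.2 to 98.4 with I-BET 762. Its I-BET 762 libraries all lay above the DMSO libraries. It did not pass the test with either compound, at 0.11 and 0.37, the second passing it under moderation without a trend. Its values equal those of another symbol in every library.

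CHD6, CHD7, CHD8 and CHD9 form the third CHD subfamily. CHD9 fell most, from 6846, 7112 and 7131 with DMSO to 2887, 3239, 3049 and 2926 with JQ1 and 3630, 3767 and 3660 with I-BET 762. All 3 groups were separate, at -1.22 ± 0.05 (limma adjusted p = 3.7e-12) and -0.93 ± 0.05 (adjusted p = 4.9e-10). CHD6 was 5000, 4911 and 4892 with DMSO, 3087, 3034, 3216 and 3394 with JQ1, and 3915, 3820 and 3893 with I-BET 762, with falls of 0.63 ± 0.05 (called) and 0.35 ± 0.05. CHD8, at 6070 to 6471 counts with DMSO, and CHD7, at 2584 to 2967, fell by only 0.19 ± 0.05 and 0.17 ± 0.06 with JQ1. The CHD7 test was lost without DMSO 13 or JQ1 17. With I-BET 762 neither passed the test, at -0.11 and -0.04. CHD8 did pass it at equal totals (-0.20), at equal upper quartiles (-0.14), with only those groups in the model, and without JQ1 20. The CHD8 to CHD9 ratio went from 0.882 (0.852 to 0.945) to 1.79 (1.58 to 2.03) and 1.56 (1.52 to 1.61), while CHD8 to CHD7 overlapped between groups, at 2.28, 2.24 and 2.18. CHD1L (ALC1), a remodeller that is recruited to DNA damage, was at 92.5 to 131 counts and did not pass the test, and 63.2% of its exon bases overlap another gene on the same strand.

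**Figure D4:**
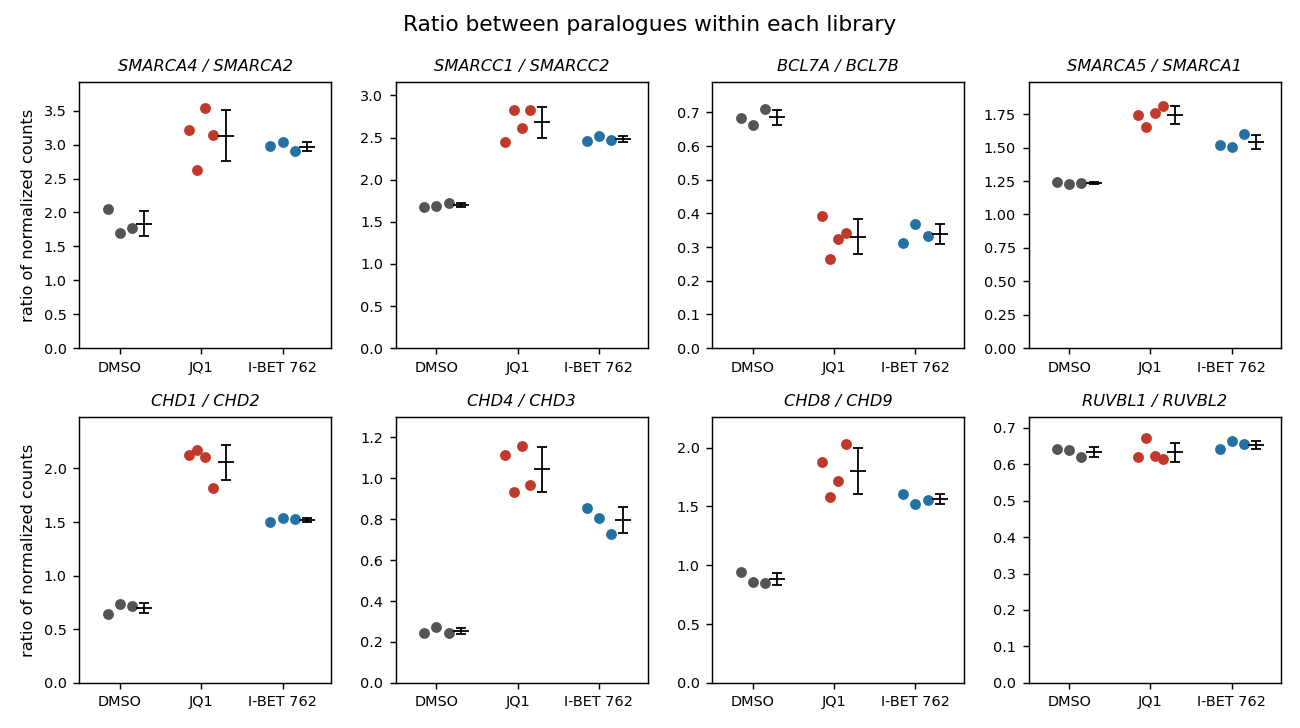
Ratio of normalized counts between 8 paralogue pairs within each library (y axis, from 0), with DMSO in grey, JQ1 in red and I-BET 762 in blue, and bars for group mean ± SD. In the CHD4 to CHD3 panel the treated libraries run from 0.727 to 1.16 above 0.245 to 0.272 with DMSO, while RUVBL1 to RUVBL2 overlaps across groups.

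In the INO80 complex 3 subunits rose and 3 fell with JQ1, and 1 rose and 3 fell with I-BET 762, of 7 tested. These are 85.7% and 57.1% of the subunits, beside 71.7% and 61.1% of all genes past the test. INO80D, a subunit specific to the complex, lies on chromosome 2 at 205993721 to 206086303 (hg38, minus strand). It was 1776, 1588 and 1590 with DMSO, 491, 494, 560 and 452 with JQ1, and 580, 568 and 614 with I-BET 762. Treated libraries all lay below DMSO, a fall of 3.31-fold with JQ1 (-1.73 ± 0.08, limma adjusted p = 1.2e-11) and 2.81-fold with I-BET 762 (-1.49 ± 0.08, adjusted p = 4.1e-10). INO80C was 209, 250 and 245 with DMSO, 332, 393, 335 and 365 with JQ1, and 342, 353 and 393 with I-BET 762. It rose by 0.60 ± 0.10 and 0.63 ± 0.10, near the fold threshold. The call was lost with JQ1 without DMSO 13 (0.52) or JQ1 18 (0.55), with I-BET 762 without DMSO 13 (0.55) or I-BET 762 23 (0.57), under equal totals with either compound (0.42 and 0.53), and with JQ1 under equal upper quartiles (0.54).

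The motor INO80 itself fell by 0.41 ± 0.05 with JQ1, from 2359 to 2489 counts to 1764 to 1876, and by 0.19 ± 0.05 with I-BET 762. INO80E fell by 0.13 ± 0.05 and 0.29 ± 0.06, and the JQ1 test was lost without DMSO 14, DMSO 15, JQ1 18, JQ1 20 or I-BET 762 22. RUVBL1 and RUVBL2, AAA+ ATPases that many complexes share, rose by 0.12 ± 0.05 and 0.12 ± 0.04 with JQ1, and both became -0.07 under equal totals. The RUVBL1 test was also lost without DMSO 13, 14 or 15 or JQ1 18, and the RUVBL2 test without DMSO 13. With I-BET 762 they stood at 0.10 and 0.06 and did not pass the test, RUVBL1 passing it only without JQ1 18 or with those groups alone in the model, and their ratio in the 10 libraries ran from 0.615 to 0.672. INO80B had 6.59 to 26.4 counts, 76% of its exon bases overlap the readthrough gene INO80B-WBP1, and its 0.51 and 0.82 did not pass the test, although they did without JQ1 17 (0.87) and, with I-BET 762, with only those groups in the model.

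HELLS, a remodeller of heterochromatin and DNA methylation, fell by 0.20 ± 0.05 with JQ1, from 8898 to 9971 counts to 8208 to 8437. Its -0.09 with I-BET 762 did not pass the test, although it did at equal totals (-0.19) and without I-BET 762 23 (-0.14). ATRX, which deposits histone H3.3 in repeats with DAXX, was 10188, 10288 and 10363 with DMSO, 9919, 10419, 10105 and 9561 with JQ1, and 10242, 10395 and 10640 with I-BET 762. Its groups overlapped, and its differences were -0.04 (95% interval -0.13 to 0.05) and 0.02 (-0.08 to 0.12). The JQ1 value passed the test at equal totals (-0.23) and at equal upper quartiles (-0.10), so that it depends on the scaling. A change of 1.5-fold lies outside both intervals.

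Of the other ARID proteins, 2 were called higher and 2 lower with JQ1, of 7 tested, beside 13.3% and 22.8% of all genes. ARID3A, a transcription factor known from B cells, was 247, 218 and 252 with DMSO, 154, 97.9, 107 and 109 with JQ1, and 116, 134 and 133 with I-BET 762, and fell 2.06-fold (limma adjusted p = 7.2e-06) and by 0.90 ± 0.15 on the log2 scale (adjusted p = 0.00011). ARID5B, a cofactor of the histone demethylase PHF2, was 5947, 5886 and 5935 with DMSO, 3106, 3582, 3384 and 3314 with JQ1, and 4775, 4717 and 4788 with I-BET 762. The 3 groups were separate, with a called fall of 0.83 ± 0.05 with JQ1 and a fall of 0.32 ± 0.05 with I-BET 762 that was under 1.5-fold. Its relative ARID5A, an RNA-binding protein that stabilises cytokine transcripts, went up, from 247, 214 and 249 with DMSO to 518, 443, 543 and 489 with JQ1 and 370, 356 and 384 with I-BET 762. ARID5A rose 2.10-fold (1.07 ± 0.09, adjusted p = 2.3e-08) and 1.56-fold (0.64 ± 0.10, adjusted p = 2.6e-05), and the I-BET 762 call was lost without DMSO 14 (0.57) and under equal totals (0.55).

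ARID3C was near the limit of detection and was tested only through its treated libraries, since no DMSO library reached 10 counts. It therefore could pass the filter only by being higher there, and its calls, 1 of the 6 higher with each compound, support nothing about the members. It was at 5.81, 6.47 and 3.64 counts with DMSO, 19.8, 6.53, 31 and 19.3 with JQ1, and 10.8, 13 and 12.8 with I-BET 762. Its rise of 1.53 ± 0.43 with JQ1 had an adjusted p of 0.0045 (limma), and JQ1 18 lay just above the DMSO range. With I-BET 762 the rise of 1.09 ± 0.46 had an adjusted p of 0.049. It rose above 0.05 when DMSO 13, 14 or 15, JQ1 17 or 20, or I-BET 762 21, 22 or 23 was left out, and ran from 0.012 to 0.16 over all alternatives. ARID4A, a subunit of the SIN3 deacetylase complex, fell by 0.25 and 0.32. Its partner ARID4B rose by 0.30 and 0.25, and ARID3B by 0.26 and 0.26. For ARID3B the JQ1 and DMSO groups overlapped, and the test was lost at equal totals (0.079 and 0.16) and equal upper quartiles, with JQ1 also without DMSO 15, and with I-BET 762 without DMSO 13, DMSO 15 or any I-BET 762 library. RBM34 overlaps 12.9% of the ARID4B exon bases on the same strand, and 24.4% of the exon stretches of ARID3B have another exact copy on the primary assembly, so these levels are less certain.

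The pseudogenes and noncoding symbols held few reads. SMARCE1P1 was 32.9, 17.6 and 24.6 with DMSO and 6.59, 15.2, 17 and 14.2 with JQ1, a called fall of 0.90 ± 0.33 (limma adjusted p = 0.023) that did not pass the test without DMSO 13, DMSO 15 or JQ1 17 (adjusted p = 0.12, 0.060 and 0.067, and 0.0096 to 0.12 over all alternatives). With I-BET 762 it stood at 20.7, 22.1 and 16.7 counts and did not pass the test. SMARCE1P5 had 6.89 to 16.5 counts and did not pass the test, except with I-BET 762 under moderation without a trend (-0.64). SMARCA5-AS1 had at most 10 reads in a library, SMARCE1P2 at most 6 and SMARCE1P3 at most 2.

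Over the 18 paralogue pairs, the ratio did not overlap between JQ1 and DMSO for 13 pairs and between I-BET 762 and DMSO for 15. Single genes did not overlap in 68.4% and 71% of cases, and no such share was computed for other gene pairs, so nothing particular to these pairs is read from the counts. Of these, 2 were lower with each compound, BCL7A to BCL7B and DPF2 to DPF3, and the rest were higher. With 4 against 3 and 3 against 3 libraries the exact permutation test (two-sided) cannot go below p = 0.0571 and p = 0.1, and its smallest adjusted values over the 18 pairs were 0.0791 and 0.12, so no ratio could pass 0.05.

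Per kilobase of the canonical transcript, the levels of the members in DMSO spanned several orders of magnitude. RUVBL2 was highest, at 5950 normalized counts per kb, followed by BCL7C at 4607, RUVBL1 at 3065, HELLS at 3046, ACTL6A at 2457 and SMARCA1 at 2232. Of the motors named above, SMARCA5 was at 1429, CHD2 at 1019, SMARCA4 at 962, ATRX at 921, CHD1 at 815, CHD8 at 733, SMARCA2 at 509, CHD3 at 440, INO80 at 379 and SMARCAL1 at 322. With JQ1, CHD3 and SMARCAL1 went to 99.5 and 97.4 per kb, and CHD1 went to 1473, above SMARCA4 at 917. The canonical transcript may not be the isoform these cells use, so the order is approximate.

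JQ1 and I-BET 762 were used at the same concentration and time, and the direct comparison was made on 53 members. Here 22 members passed the test, 5 higher and 17 lower with JQ1 than with I-BET 762, beside 27.3% of all genes (13.3% higher and 14% lower). Only 2 were called, both lower, SMARCE1 and SMARCAL1, where 5.31% of all genes were called and 3.59% called lower. No member was called higher with JQ1 (limma, 5 at an unadjusted p under 0.05 and 0 called with limma-voom), where 1.73% of all genes were. The median difference was -0.09 over the members and -0.00 over all genes, and the inhibitor groups did not overlap for 24 members (6 higher and 18 lower), beside 33.8% of all genes (17.5% and 16.3%).

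SMARCE1 was 1.66-fold lower with JQ1 than with I-BET 762 (-0.73 ± 0.07, limma adjusted p = 4.2e-06), with 665 to 768 counts against 1145 to 1291. SMARCAL1 was 1.51-fold lower (-0.60 ± 0.08, adjusted p = 8.1e-05), and its call was lost without JQ1 19 or I-BET 762 21 (-0.55 in each case), which left SMARCE1 as the only called member. ARID5B was next at -0.51 ± 0.05, then ARID2 at -0.38 ± 0.05, SMARCAD1 at -0.34 ± 0.05, CHD3 at -0.31 ± 0.06 and ARID1A at -0.31 ± 0.09, each past the test and under 1.5-fold. The ARID1A test was lost without I-BET 762 22 or 23. ARID5A was higher by 0.42 ± 0.09 and CHD1 by 0.21 ± 0.05. PBRM1 was lower by 0.16 ± 0.04 with JQ1, a test lost without I-BET 762 22. In this comparison 9 of the 22 members did not pass the test under at least 1 alternative, and 7 others passed it under one. For SMARCA4 the compounds did not differ detectably, at -0.11 with an interval of -0.28 to 0.07, nor for BCL7A (-0.08, -0.29 to 0.13), INO80C (-0.03, -0.23 to 0.18) or ATRX (-0.06, -0.15 to 0.03), though ATRX passed the test at equal totals (-0.15).

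**Figure D5:**
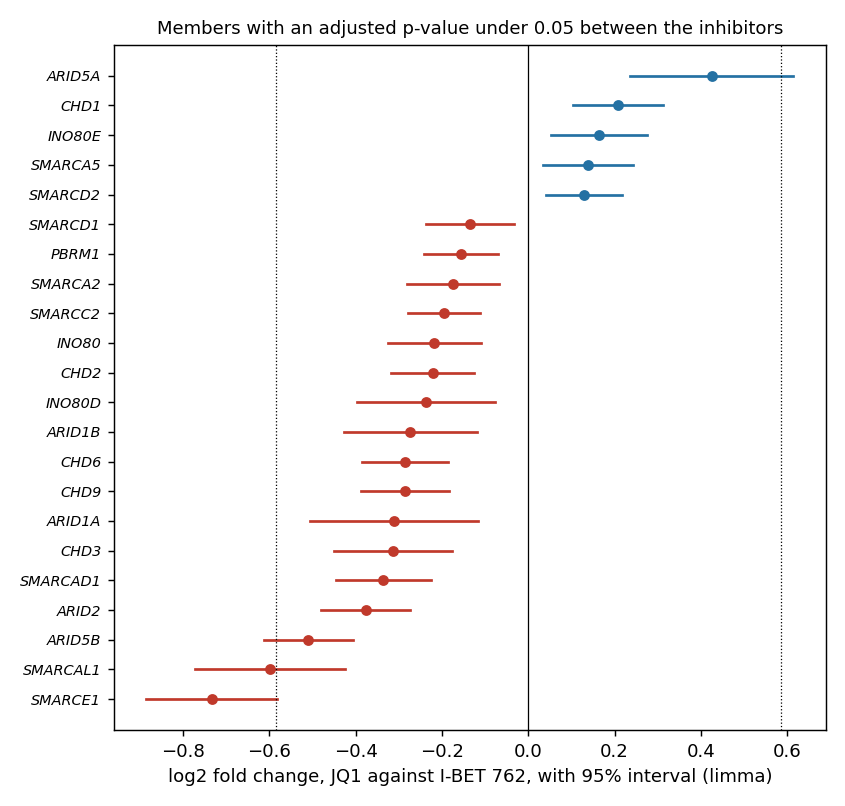
Log2 fold change of JQ1 against I-BET 762 (x axis) for the 22 members past the test, with 95% intervals from limma, in blue where JQ1 was higher and red where it was lower. Dotted lines mark 1.5-fold. SMARCE1 at -0.73 and SMARCAL1 at -0.60 lie beyond the line, and 15 others are lower with JQ1 within it.

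Subunits of the same and related complexes with other names, together with a few separate SNF2-family motors, were counted as a list of 61 genes, of which 60 were tested and ACTL6B was below the filter. With JQ1 16 rose and 21 fell, 61.7% of the list beside 71.7% of all genes, with 4 called higher and 6 lower. With I-BET 762 16 rose and 14 fell, 50% beside 61.1%, with 1 called higher and 3 lower. The list's medians were -0.05 and 0.03. The called counts, 10 and 4 of 60, were 16.7% and 6.67%, beside 36.1% and 26.9% of all genes. No test set these shares against the background, and nothing is read from them. In the direct comparison 5 were higher, 14 lower and 0 called with limma (8 higher and 20 lower at an unadjusted p under 0.05), beside 13.3%, 14% and 5.31% of all genes. The largest called rise with JQ1 was BAZ1A, an ISWI partner, at 0.88 ± 0.05, from 5560 to 6017 counts with DMSO to 10335 to 11664. The largest called fall was DAXX, the partner of ATRX, at -1.98 ± 0.72, on few and widely spread counts, 8.72 to 75.5 with DMSO and 2.18 to 7.69 with JQ1. No JQ1 library of DAXX reached 10 counts, so it passed the filter only through the other groups, and nothing is read from its call. With I-BET 762 these were ING3, of the NuA4 complex, at 0.998 ± 0.08, and CDK2AP1, of NuRD, at -0.82 ± 0.05.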

How the data were processed

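RNA was extracted with Trizol, libraries were made with a strand-specific total RNA kit and sequenced on a NovaSEQ6000. The authors checked reads with FastQC 0.73, trimmed them with Trimmomatic, aligned them to hg38 with HISAT2 2.2.1, counted them per gene with featureCounts 2.0.3 and normalized them with DESeq2. The deposited values are log2(normalized count + 1), as tested on the values, since 99.7% to 99.8% of values in each library gave whole reads within 0.02 once the scaling was undone. Settings for strand, multiple matches and alternate contigs are not given in the sources used here. The table held 10 columns, all matched to libraries by name.

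The 10 libraries were fitted in 1 linear model in limma 3.58.1 (R 4.3.3) with an intensity trend, and p-values were adjusted by Benjamini-Hochberg over 14839 genes with at least 10 normalized counts in at least 3 libraries. No pseudocount beyond the deposited 1 was added. A call needed an adjusted p-value under 0.05 and a change over 1.5-fold (0.585 on the log2 scale). On simulated counts for 14885 genes, the JQ1 comparison recovered 61 of 66 genes changed 1.75-fold and the I-BET 762 comparison 62 of 66. The simulation gave all genes 1 common spread beyond counting error and left most of them unchanged, unlike these libraries. Its recovery is therefore not the sensitivity of the test on these data. Paralogue ratios were compared by an exact permutation test. Every member is accounted for, called members with their values in each library, and of the other subunits the called genes with the largest rise and fall in each comparison are described in the report, with the gene below the filter named, and a further few, chosen after their values were seen, in the closing section. The members and lists were chosen with earlier results of these data known.

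Gene positions, exon overlaps and exact copies of exon stretches came from Gencode V44 on hg38, while the authors counted reads with Gencode V41, so the overlap shares may differ in the annotation behind the counts, and promoters from RefSeq (GRCh38.p14). Python 3.11.15, numpy 2.4.6, pandas 2.3.3, scipy 1.17.1 and matplotlib 3.10.9 were used. Alternatives were other pseudocounts (0.5 and 5), filters, scalings, thresholds, moderation and groups in the model, each library left out, and limma-voom on the recovered reads, the last chosen after seeing the data.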

Additional observations from a re-analysis of the deposited data

Results flagged for a closer look

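In JQ1 18, ACTL6A was at 7591 normalized counts, where the other JQ1 libraries ran from 6111 to 6286. Of 53 members this was the only one with so wide a gap among the 4 JQ1 libraries, a gap that chance gives in about 1 in 20 groups. The DMSO and I-BET 762 groups, with 3 libraries each, were not examined in this way. Over all symbols, the median log2 value of JQ1 18 was 5.95, where the other JQ1 libraries were at 6.06 to 6.07. The cause of this difference was not tested.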

How the results depend on the processing

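Without a fold threshold the members past the test numbered 19 higher and 27 lower with JQ1, 16 and 20 with I-BET 762, and 5 and 17 between the inhibitors. Over 2-fold they numbered 2 higher and 7 lower, 1 and 4, and 0 lower between the inhibitors. ARID3C, whose calls support nothing about the members, was 1 of the 2 higher with JQ1 and the only 1 higher with I-BET 762. No share of all genes over 2-fold was computed, so nothing particular to the members is read from these counts. Equal totals, which moved the median of all genes by -0.18, -0.10 and -0.09, left 2 members called higher with I-BET 762 and turned RUVBL1 (-0.068), RUVBL2 (-0.065), SMARCC1 (-0.010) and SMARCD3 (-0.036) below 0 with JQ1, none past the test, and the cause was not tested. With each library left out in turn, 5 to 7 members were called higher and 15 to 17 lower with JQ1, 4 to 6 and 8 to 10 with I-BET 762, and 0 and 1 to 3 between the inhibitors (1 without JQ1 19 or I-BET 762 21, 3 without JQ1 20). Of the member values under alternatives, 2911 kept their direction and whether they were called, 39 were no longer called, 7 became called, 4 reversed, and 39 that had not passed the test changed sign. By adjusted p-value alone, whatever the fold, 119 values lost the test and 36 gained it. The planned edgeR and DESeq2 tests on recovered reads were not run, since such tests were kept to tables deposited as counts, and limma-voom on the recovered reads, chosen after seeing the data, took their place. No paired analysis was possible because the replicate numbers 13 to 24 are all different. Depth limits ARID3C, INO80B, DPF3, CHD5 and the pseudogenes.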

Other observations

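Among the other subunits, KAT5 and DMAP1, which both belong to the TIP60 acetyltransferase and remodelling complex, fell with JQ1, while their I-BET 762 and DMSO values overlapped. They were chosen after their values were seen. KAT5 was 1518 to 1639 normalized counts with DMSO, 1119 to 1225 with JQ1 and 1543 to 1698 with I-BET 762, and the inhibitors differed by -0.46 ± 0.06 (log2, limma adjusted p = 3.6e-05). DMAP1 was 1595 to 1660, 1169 to 1319 and 1564 to 1620, and differed by -0.38 ± 0.05 (limma adjusted p = 1.0e-04). Both differences were under 1.5-fold. Other members of the complex did not all follow this pattern. TRRAP did, falling by 0.37 with JQ1 while its I-BET 762 and DMSO values overlapped. ING3 and MEAF6 rose by 0.77 and 0.27 with JQ1, and EPC1 fell by 0.16. EP400, BRD8, MORF4L1, YEATS4, EPC2, MRGBP and VPS72 did not pass the test with JQ1. They were at 0.18, -0.06, -0.07, -0.01, 0.06, -0.10 and -0.07. RUVBL1, RUVBL2 and ACTL6A, also in this complex, rose by 0.12, 0.12 and 0.52, with the limits given above. Between the inhibitors, ING3 and YEATS4 were also lower with JQ1 past the test (-0.23 and -0.20). Apart from KAT5 and DMAP1, no other gene named here passed it, with TRRAP at -0.26 and MEAF6 and EPC1 at 0.13.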
